A study of Homo sapiens with 4 samples.

Results

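The matrix metalloproteinases (MMP), the adamalysins (ADAM and ADAMTS) and their tissue inhibitors (TIMP) were described in U2OS cells, an established human osteosarcoma line, after knockdown of PURB, a PUR family protein that binds single-stranded DNA and RNA. Members were chosen by symbol alone, as every gene named MMP, TIMP, ADAM or ADAMTS followed by a number, which gave 67 of the 39519 genes in the table: 4 TIMP, 22 MMP, 22 ADAM and 19 ADAMTS genes. The sh-PURB libraries (n = 2) came from cells whose knockdown was induced with doxycycline at 5 µg/ml for 72 h, and the sh-NC libraries (n = 2) from control cells given DMSO. Libraries were made from total RNA depleted of ribosomal RNA, and the values are TPM, a share of all transcripts scaled to length, for which the depth is unknown. Doxycycline was present in every sh-PURB library and in no sh-NC library, so knockdown and drug cannot be told apart, and tetracyclines are known as inhibitors of MMP activity at the protein level. The labels do not say whether the libraries came from separate cultures or from 1 hairpin or clone, so a p-value sets a difference against a spread between libraries that may be technical.

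MMPs are zinc-dependent enzymes that are made as inactive precursors and cut collagens, gelatin, proteoglycans and many surface proteins. ADAMs are mostly membrane-anchored and release the outer parts of surface proteins such as growth factors and Notch receptors, while ADAMTS enzymes are secreted and process procollagens, proteoglycans and other matrix proteins. TIMPs are small secreted proteins that plug the active site of these enzymes. In bone, matrix breakdown and remodelling by osteoblasts and osteoclasts rest on several of them, and in osteosarcoma they are studied for their part in invasion.

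PURB, the target, was at 2.46 and 2.69 TPM in sh-PURB, against 5.29 and 6.55 TPM in sh-NC (43.5% of the control mean, limma adjusted p = 0.102). The exact two-sided permutation p was 0.333, the smallest that 2 against 2 allows. Of 8 osteoblast lineage markers 5 were under 1 TPM in every library, with IBSP listed at 0 throughout and SP7 at 0 in 3 of the 4, while RUNX2 lay between 1.92 and 3.92 TPM and COL1A1 between 9.53 and 39.7 TPM. The 4 endothelial markers were under 1 TPM in every library. The 4 epithelial markers summed to 6.29 and 4.41 TPM in sh-PURB and to 5.59 and 4.67 TPM in sh-NC. The 4 fibroblast markers summed to 35.8 and 34.7 TPM in sh-PURB, against 46.5 and 50.1 TPM in sh-NC, so their groups did not overlap and none was listed at 0 throughout. Within that list PDGFRA was at 41.6% of control (limma adjusted p = 0.0695), LUM at 63.7% (limma adjusted p = 0.153) and DCN under 1 TPM, while THY1 had overlapping groups. The 6 leukocyte and macrophage markers, of cells known to make MMP9 and MMP12, summed to 5.38 and 3.57 TPM in sh-PURB and to 3.96 and 9.19 TPM in sh-NC. None was listed at 0 throughout, but CD14, CSF1R and ITGAM, 3 of the 6, were under 1 TPM in every library. CD68 was the largest part of the sum in each library, between 2.21 and 4.67 TPM. LYZ was above 1 TPM only in sh-NC replicate 2, at 2.11 TPM. The relation of the fibroblast and leukocyte markers to the members' values was not tested. All libraries came from U2OS, an established line, so these sums are transcript levels in bulk RNA and not numbers of fibroblasts or leukocytes.

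Across the 67 genes, TIMP1 was the most abundant and fell to 31.1% of its control mean, the only member that passed the test over all genes. It made up 48.0% and 44.2% of the members' summed TPM in sh-PURB, against 74.7% and 71.6% in sh-NC. MMP9 and MMP7 were lowest relative to control among the tested proteinases, ADAMTS6 and ADAMTS1 stood about 3 times higher, and the abundant sheddase ADAM9 was 1.45 times higher in sh-PURB. ADAM10, the second most abundant proteinase, had almost the same mean in both groups. The summed TPM of all 67 genes was 497 and 525 in the sh-PURB libraries, against 1016 and 1055 in the sh-NC libraries. Without TIMP1 the other 66 genes summed to 259 and 293 TPM in sh-PURB, against 257 and 300 TPM in sh-NC, so the groups then overlapped.

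**Figure D1:**
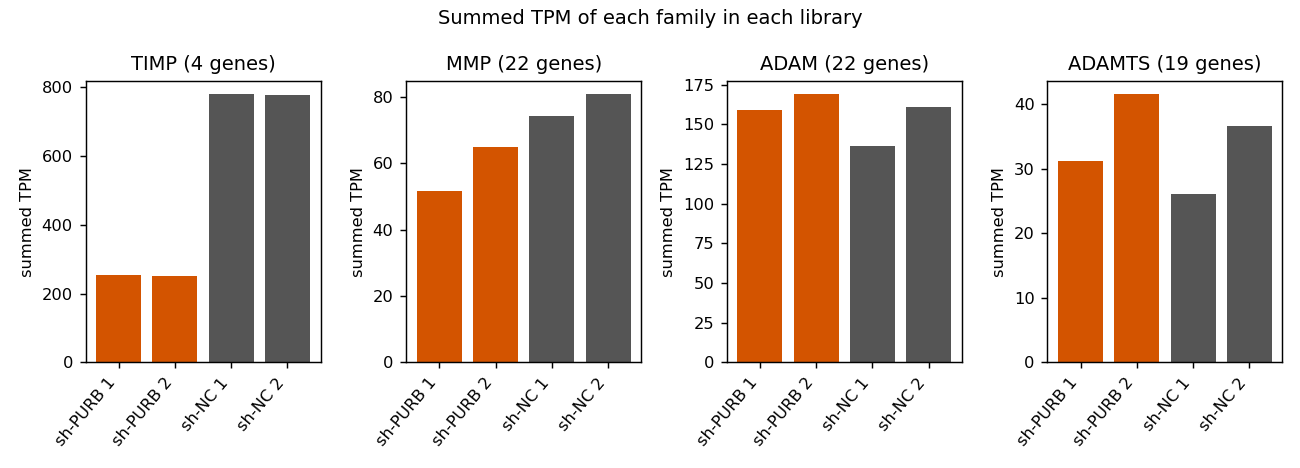
Summed TPM of the 4 TIMP, 22 MMP, 22 ADAM and 19 ADAMTS genes in each library, sh-PURB bars left of sh-NC bars, each panel on its own scale from 0. The TIMP sum was 255 and 250 TPM in sh-PURB against 779 and 777 TPM in sh-NC, the MMP sums did not overlap either, and the ADAM and ADAMTS sums overlapped.

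Of the 67 members, 33 reached 1 TPM in at least 2 libraries and were tested with limma on log2(TPM + 1), and 34 were too low. MMP7, MMP24 and ADAMTS2 passed that filter only through the group in which they were high, so counts over the tested members are given as a description and not as support. Limma called 1 member at an adjusted p under 0.05, TIMP1, where 0.287% of all 14269 tested genes were called, 0.0841% higher and 0.203% lower (12 higher and 29 lower, or 26 higher and 34 lower with TPM recomputed without the most abundant and the mitochondrial genes). At an unadjusted limma p under 0.05 there were 5 members higher and 8 lower, beside 5.77% and 9.53% of all tested genes. The groups did not overlap for 23 tested members, 8 higher (24.2%) and 15 lower (45.5%) in sh-PURB, where 18.6% and 29.3% of all tested genes were apart in these directions. The median difference of the tested members was -0.11 on the log2(TPM + 1) scale, beside -0.06 for all tested genes, and it was -0.35 without sh-PURB replicate 2 and -0.23 without sh-NC replicate 1.

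**Figure D2:**
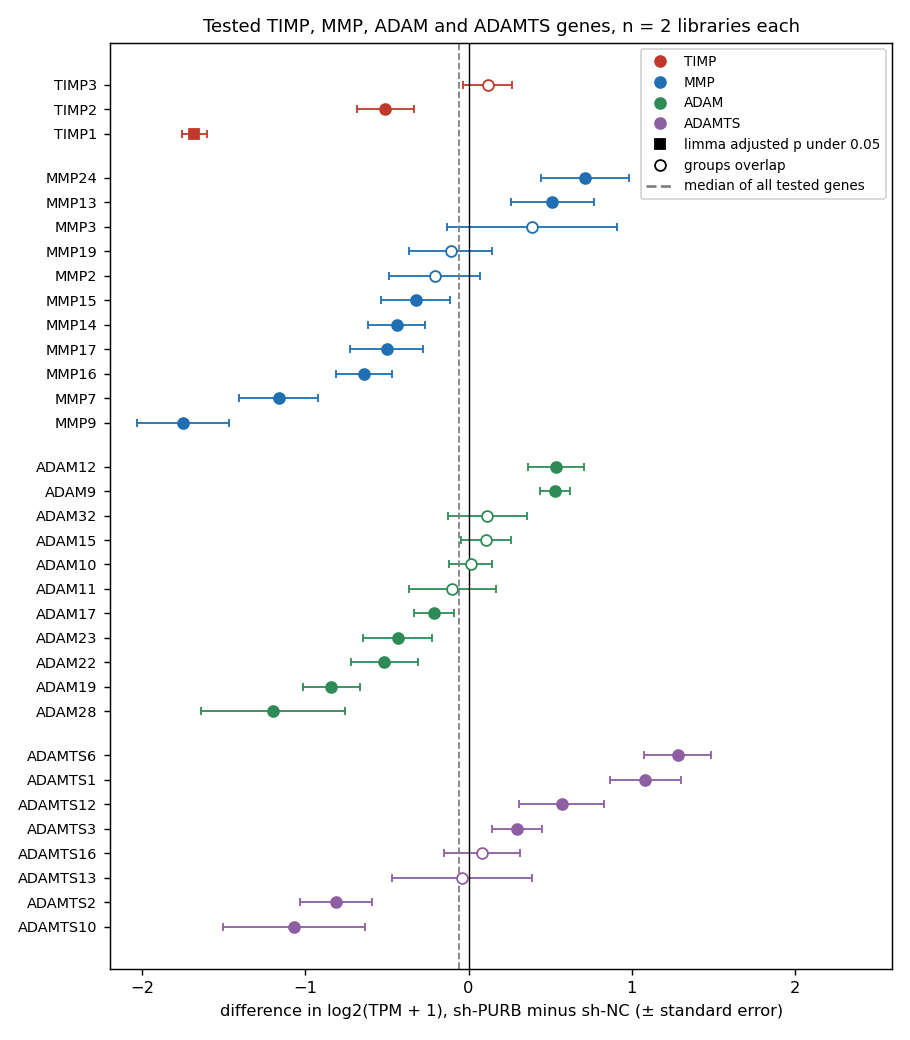
Difference in log2(TPM + 1), sh-PURB minus sh-NC, with its limma standard error for the 33 tested members, sorted within each family. Squares are called at a limma adjusted p under 0.05 (TIMP1 only), open points are members whose groups overlapped (10 of 33), and the dashed line is the median of all tested genes at -0.06.

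TIMP1, which inhibits most secreted MMPs and binds the precursor of MMP9, had 238 and 232 TPM in sh-PURB, against 759 and 755 TPM in the sh-NC libraries. The replicates of each group lay close together and the groups were far apart. It averaged 235 ± 4.46 TPM in sh-PURB and 757 ± 2.63 TPM in sh-NC (SD, n = 2 each), 3.22-fold lower. Its difference was -1.68 on the log2(TPM + 1) scale (SE 0.077, limma adjusted p = 0.0374). The exact two-sided permutation p was 0.333, again the smallest possible. Among protein-coding genes it ranked 139th and 137th by TPM in sh-PURB, against 38th and 43rd in sh-NC. The adjusted p stood above 0.05 at a pseudocount of 0.1 (0.0533), with no filter (0.185), in limma without trend (0.0640) and without any single library (0.106 to 0.243), while the difference stayed between -1.70 and -1.53 in all settings tried.

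TIMP1 lies on chromosome X at 47582313 to 47586789, plus strand (GRCh38, GENCODE v29), inside the synapsin gene SYN1 on the opposite strand. Whether counting used the strand is not stated in these sources. SYN1 itself was at 0.0807 and 0.0928 TPM in sh-PURB, against 0.285 and 0.636 TPM in sh-NC, far under the level of TIMP1. Since PUR proteins are known to bind purine-rich strands with repeats of GGN, the RefSeq promoter windows (250 bases before to 50 after the start, GRCh38.p14) were searched on both strands for GGNGGNGG, and for the AP-1 motif TGANTCA and the GC box GGGCGG. The windows of 3 members are shown, picked by name with earlier results known. These members lay furthest from control among the tested members with a window. Matches to GGNGGNGG are in capitals for TIMP1 (chrX:47582186-47582485, plus strand) and ADAMTS6 (chr5:65481871-65482170, minus strand). The match to TGANTCA is in capitals for MMP7 (chr11:102530698-102530997, minus strand). Each window is written 5′ to 3′ along the gene.
TIMP1: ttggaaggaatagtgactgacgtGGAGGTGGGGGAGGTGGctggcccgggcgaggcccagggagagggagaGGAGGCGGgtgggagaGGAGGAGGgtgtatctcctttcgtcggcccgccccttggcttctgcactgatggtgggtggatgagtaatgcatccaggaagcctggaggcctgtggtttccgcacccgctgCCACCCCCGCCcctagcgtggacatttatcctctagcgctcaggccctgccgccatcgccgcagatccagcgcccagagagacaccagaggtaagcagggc
ADAMTS6: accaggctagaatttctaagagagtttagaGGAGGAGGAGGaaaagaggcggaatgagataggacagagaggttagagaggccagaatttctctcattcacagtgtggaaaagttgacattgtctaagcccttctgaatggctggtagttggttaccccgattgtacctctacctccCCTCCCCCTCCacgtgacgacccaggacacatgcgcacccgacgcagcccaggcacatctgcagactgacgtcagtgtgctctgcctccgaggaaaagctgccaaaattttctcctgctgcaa
MMP7: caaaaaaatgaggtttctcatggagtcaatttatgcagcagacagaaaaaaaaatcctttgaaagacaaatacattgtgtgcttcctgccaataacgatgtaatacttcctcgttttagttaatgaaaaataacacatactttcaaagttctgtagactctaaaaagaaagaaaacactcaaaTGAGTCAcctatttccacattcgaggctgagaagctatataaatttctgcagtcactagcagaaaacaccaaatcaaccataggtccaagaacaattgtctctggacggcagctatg

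The TIMP1 window held 8 matches to GGNGGNGG, some of them overlapping, over 44 of its 300 bases. The ADAMTS6 window held 4 over 22 bases, and the MMP7 window held none. Such a match stood in 52.8% of all 35116 windows and in 26 of the 39 windows of 38 members. Among members tested with groups apart, it stood in 8 of 11 windows of 10 lower members and in 5 of 5 windows of higher members. ADAMTS10 entered with both of its windows. MMP7, ADAMTS2 and MMP24 are among these and passed the filter only through the group where they were high. The AP-1 motif stood in 7.71% of all windows and in 4 of the members' windows, those of MMP7, MMP10, MMP20 and ADAMTS12. Only 11 of the 22 MMP genes had a window. MMP1, MMP3, MMP9, MMP13 and ADAMTS1 had none, so nothing is known here of motifs at their promoters. The GC box, which shares letters with GGNGGNGG, stood in 45.0% of all windows and in 25 of the 39. These are matches of letters and not measured binding.

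TIMP2, which inhibits MMP2 and also carries its precursor to MMP14 for activation, was at 8.83 and 11.3 TPM in sh-PURB, against 13.4 and 16.1 TPM in sh-NC. Both sh-PURB libraries were lower, and the difference of -0.51 (SE 0.17) missed the threshold (limma adjusted p = 0.278). TIMP3, the matrix-bound inhibitor that also acts on ADAM17 and on ADAMTS enzymes, was at 7.38 and 6.64 TPM in sh-PURB, against 6.89 and 5.90 TPM in sh-NC, and its groups overlapped (limma adjusted p = 0.773). TIMP4 was at or under 0.0660 TPM in every library and was not tested. TIMP1 made up 93.6% and 92.8% of the summed TIMP transcripts in sh-PURB, against 97.4% and 97.2% in sh-NC. The ratio of summed TIMP to summed MMP transcripts was 4.92 and 3.86 in sh-PURB, against 10.5 and 9.63 in sh-NC, a ratio of transcripts and not of proteins.

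**Figure D3:**
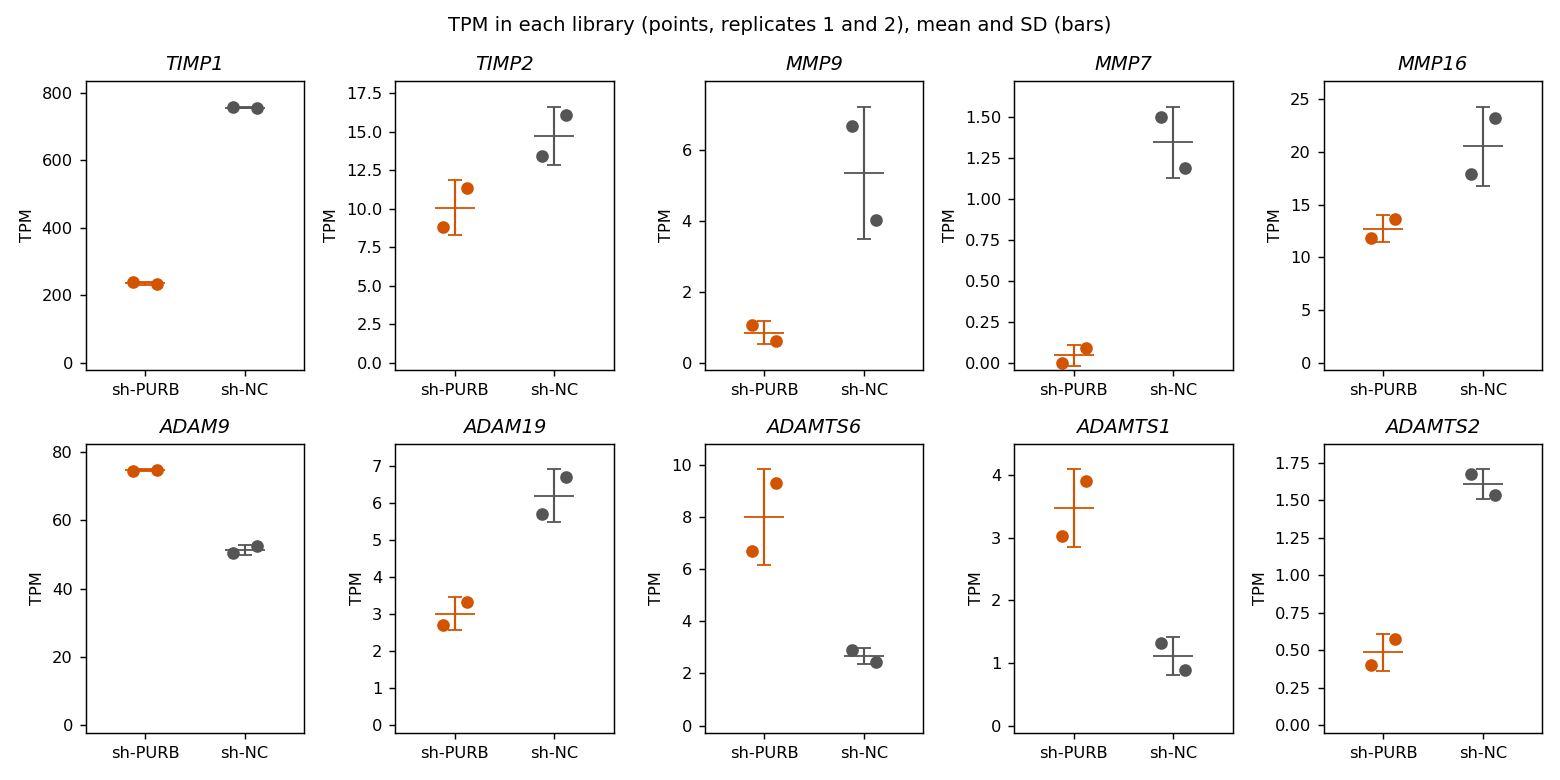
TPM of 10 members in each library, points for replicates 1 and 2 and bars for the mean and SD, sh-PURB left of sh-NC. The groups are apart in all 10 panels because only members with groups apart are shown. Among the 33 tested members 10 overlapped, and of all tested genes 29.3% were apart lower and 18.6% apart higher. TIMP1 alone passed the test over all genes, and MMP7 and ADAMTS2 passed the filter only through sh-NC. TIMP1, TIMP2, MMP9, MMP7, MMP16, ADAM19 and ADAMTS2 lie lower in sh-PURB and ADAM9, ADAMTS6 and ADAMTS1 higher.

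Among the 22 MMP genes 11 were tested, and none passed the threshold. At an unadjusted limma p under 0.05, 1 was higher and 3 were lower, beside 5.77% and 9.53% of all tested genes. The 1 higher was MMP24 and 1 of the 3 lower was MMP7, and each passed the filter only through the group where it was high. The median difference of the 11 genes was -0.32, which was -0.58 without sh-PURB replicate 2 and -0.09 over all MMP genes above 0 with no filter. Without overlap of the groups 6 were lower and 2 higher in sh-PURB, beside 29.3% and 18.6% of all tested genes. The summed MMP transcripts were 51.8 and 64.7 TPM in sh-PURB, against 74.1 and 80.7 TPM in sh-NC. MMP14, MMP16 and MMP2 made up 64.8% and 73.0% of that sum in sh-PURB, against 67.8% and 74.0% in sh-NC.

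The gelatinases differed from each other. MMP9, which cuts denatured collagen and basement membrane collagen, was at 1.08 and 0.631 TPM in sh-PURB, against 6.66 and 4.03 TPM in sh-NC. That is 6.24-fold lower in mean TPM, with a difference of -1.75 (SE 0.28, limma adjusted p = 0.0854). MMP9 (chromosome 20, 46008908 to 46016561, plus strand) overlaps the span of the antisense gene SLC12A5-AS1. That gene was at 0.940 and 1.17 TPM in sh-PURB, against 2.23 and 1.46 TPM in sh-NC. Whether their exons overlap was not examined, and without strand only reads from shared sequence could not be told apart. MMP2, the other gelatinase, was at 10.7 and 18.5 TPM in sh-PURB, against 14.6 and 18.4 TPM in sh-NC, with overlapping groups (limma adjusted p = 0.783). MMP19, a broadly expressed MMP, also had overlapping groups.

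Of the 5 tested membrane-type MMPs, which sit on the cell surface, 4 lay lower in both sh-PURB libraries, beside 29.3% of all tested genes, and none passed the test. MMP14, the main activator of pro-MMP2, was at 11.03 and 15.2 TPM in sh-PURB, against 17.7 and 18.2 TPM in sh-NC (difference -0.44, SE 0.18, limma adjusted p = 0.340, and -0.23 without sh-PURB replicate 1). MMP16, a close relative of MMP14, was at 11.8 and 13.6 TPM in sh-PURB, against 17.9 and 23.2 TPM in sh-NC (difference -0.64, SE 0.17, limma adjusted p = 0.191). MMP15 and the GPI-anchored MMP17 were at 76.2% and 55.0% of the control mean. MMP24, known for its part in the nervous system, was the exception at 1.22 and 2.17 TPM in sh-PURB, against 0.502 and 0.742 TPM in sh-NC (difference 0.71, SE 0.27, limma adjusted p = 0.319, and 0.46 without sh-PURB replicate 2). It passed the filter only through sh-PURB. MMP24 overlaps MMP24OS on the opposite strand, which was at 1.43 and 1.66 TPM in sh-PURB, against 1.71 and 2.05 TPM in sh-NC. Because TIMP2 and MMP14 both lay lower, the ratio of TIMP2 to MMP14 was 0.801 and 0.747 in sh-PURB, against 0.759 and 0.885 in sh-NC, with overlapping groups.

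A cluster on chromosome 11 holds 9 MMP genes (102520508 to 102955734) in the order MMP7, MMP20, MMP27, MMP8, MMP10, MMP1, MMP3, MMP12 and MMP13, and they did not share a direction. MMP7 (matrilysin), a short MMP that lacks the hemopexin domain of most others, was listed at 0 and at 0.0896 TPM in sh-PURB, against 1.50 and 1.19 TPM in sh-NC (difference -1.16, SE 0.24, limma adjusted p = 0.130). MMP13, the collagenase made by bone and cartilage cells, was at 2.94 and 4.48 TPM in sh-PURB, against 1.85 and 2.71 TPM in sh-NC (difference 0.51, SE 0.25, limma adjusted p = 0.412). The MMP13 difference was 0.28 without sh-PURB replicate 2 and 0.32 without sh-NC replicate 1. So the opposite ends of the cluster differed in the sign of the difference, each without passing the test. MMP3 (stromelysin-1) was at 6.19 and 1.53 TPM in sh-PURB, against 1.84 and 2.73 TPM in sh-NC, so sh-PURB replicate 1 alone was high (limma adjusted p = 0.783, difference -0.37 without that library). MMP3 overlaps WTAPP1, an expressed pseudogene on the opposite strand with 2.26 and 4.93 TPM in sh-PURB, against 4.58 and 4.38 TPM in sh-NC. MMP10 (stromelysin-2), too low to test, was at 0.0383 and 0.166 TPM in sh-PURB, against 0.932 and 0.447 TPM in sh-NC. MMP12, the macrophage elastase, was at 0.241 and 0.167 TPM in sh-PURB, against 0.0191 and 0.0618 TPM in sh-NC, also too low to test. MMP1 was under 0.23 TPM in every library, and MMP8 and MMP27 were listed at 0 throughout.

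**Figure D4:**
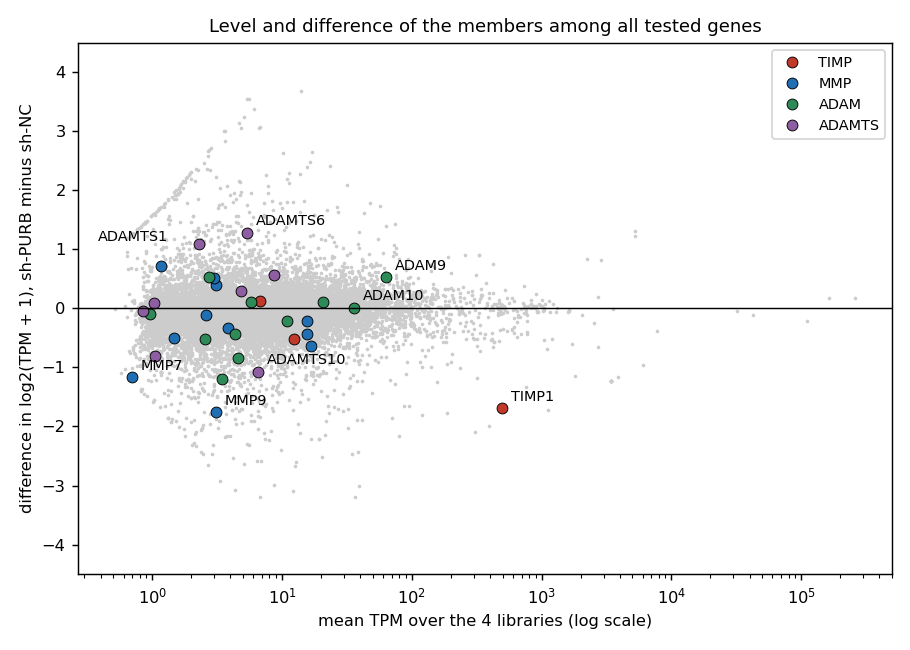
Mean TPM over the 4 libraries (log axis) against the difference in log2(TPM + 1), sh-PURB minus sh-NC, for all 14269 tested genes in grey and the 33 tested members in colour. TIMP1, at a mean of 496 TPM, stands alone among the members in level, and the other members lie under 100 TPM among the grey points of like level.

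Among the 22 ADAM genes 11 were tested and none passed the threshold. At an unadjusted limma p under 0.05, 2 were higher and 2 lower, beside 5.77% and 9.53% of all tested genes. The median difference of the 11 genes was -0.10, which was 0.07 without sh-PURB replicate 1, -0.24 without sh-PURB replicate 2 and 0.06 with a filter at 5 TPM. The summed ADAM transcripts were 159 and 169 TPM in sh-PURB, against 137 and 161 TPM in sh-NC. ADAM9 and ADAM10 together made up 68.6% and 66.5% of it in sh-PURB, against 60.7% and 56.9% in sh-NC.

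ADAM9, a broadly expressed sheddase, was at 74.6 and 74.9 TPM in sh-PURB, against 50.4 and 52.5 TPM in sh-NC. The replicates of each group lay close together, and the difference of 0.53 (SE 0.09) had a limma adjusted p of 0.0965. ADAM10, the main sheddase of Notch receptors and cadherins, was at 34.7 and 37.4 TPM in sh-PURB, against 32.5 and 39.1 TPM in sh-NC. Its difference of 0.01 (SE 0.13, limma adjusted p = 0.976) changed sign when sh-NC replicate 1 or sh-PURB replicate 2 was left out. ADAM17, which releases TNF and ligands of the EGF receptor, was at 9.78 and 10.2 TPM in sh-PURB, against 11.5 and 11.9 TPM in sh-NC, 85.4% of control (limma adjusted p = 0.489). ADAM17 and ADAM19 overlap IAH1 and CYFIP2 on the opposite strand, for which strand was again not stated. IAH1 was at 12.3 and 13.0 TPM in sh-PURB, against 10.9 and 8.89 TPM in sh-NC, and CYFIP2 at 13.2 and 16.6 TPM in sh-PURB, against 10.7 and 13.0 TPM in sh-NC.

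ADAM19, a sheddase of neuregulin, was at 2.70 and 3.33 TPM in sh-PURB, against 5.68 and 6.69 TPM in sh-NC, 48.7% of control (difference -0.84, SE 0.18, limma adjusted p = 0.130). Its close relative ADAM12, which marks mesenchymal cells, lay the other way at 3.66 and 3.21 TPM in sh-PURB, against 1.96 and 2.15 TPM in sh-NC (difference 0.54, SE 0.17, limma adjusted p = 0.257). ADAM15, an adhesion protein and sheddase, had overlapping groups between 17.4 and 22.5 TPM. ADAM28, first known from lymphocytes, was at 1.12 and 2.07 TPM in sh-PURB, against 2.91 and 7.79 TPM in sh-NC, and sh-NC replicate 2 was far above the other 3 libraries (difference -1.20, limma adjusted p = 0.308, and -0.61 without that library). ADAM22 and ADAM23, neural adhesion proteins without a catalytic zinc site, were at 60.3% and 67.9% of control with groups apart, and ADAM32, known from testis, was at 4.76 and 7.48 TPM in sh-PURB, against 4.83 and 6.14 TPM in sh-NC. None of these passed the test, and ADAM11 had overlapping groups.

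Among the 19 ADAMTS genes 8 were tested and none passed the threshold. At an unadjusted limma p under 0.05, 2 were higher and 1 was lower, beside 5.77% and 9.53% of all tested genes. The 1 lower was ADAMTS2, which passed the filter only through sh-NC, where it was high. The median difference of the 8 genes was 0.19, with 4 higher and 2 lower in both sh-PURB libraries, beside 18.6% and 29.3% of all tested genes. The median was 0.33 without sh-PURB replicate 1, 0.40 without sh-NC replicate 2 and -0.02 over all ADAMTS genes above 0 with no filter. The summed ADAMTS transcripts were 31.3 and 41.6 TPM in sh-PURB, against 26.0 and 36.7 TPM in sh-NC. ADAMTS6 and ADAMTS12 made up 52.9% and 49.0% of it in sh-PURB, against 30.5% and 30.7% in sh-NC.

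ADAMTS6, a secreted protease linked to fibrillin microfibrils, was at 6.69 and 9.28 TPM in sh-PURB, against 2.89 and 2.44 TPM in sh-NC. It stood 3 times higher in mean TPM, with a difference of 1.28 (SE 0.20, limma adjusted p = 0.0850), and lies on chromosome 5 at 65148736 to 65481920, minus strand. Its closest relative ADAMTS10, also tied to fibrillin, was at 2.09 and 5.97 TPM in sh-PURB, against 7.04 and 10.9 TPM in sh-NC (difference -1.07, SE 0.44, limma adjusted p = 0.346). The ADAMTS10 difference depended on the sh-PURB library, at -0.49 with replicate 1 left out and -1.66 with replicate 2 left out. The pair lay in opposite directions, neither past the threshold.

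ADAMTS1, which cuts the proteoglycans versican and aggrecan, was at 3.03 and 3.91 TPM in sh-PURB, against 1.32 and 0.893 TPM in sh-NC, 3.13 times higher (difference 1.08, SE 0.22, limma adjusted p = 0.124). The aggrecanases ADAMTS4 and ADAMTS5 were under 0.411 TPM in every library. ADAMTS12, which cuts cartilage oligomeric matrix protein, was at 9.86 and 11.1 TPM in sh-PURB, against 5.06 and 8.80 TPM in sh-NC (difference 0.57, SE 0.26, limma adjusted p = 0.386), and its difference was 0.23 without sh-NC replicate 1 and 0.92 without sh-NC replicate 2.

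The procollagen N-proteinases, which trim the amino end of fibrillar procollagens, differed among themselves. ADAMTS2 was at 0.400 and 0.575 TPM in sh-PURB, against 1.68 and 1.54 TPM in sh-NC, 30.3% of control (difference -0.81, SE 0.22, limma adjusted p = 0.196). ADAMTS14, too low to test, was at 0.0901 and 0.169 TPM in sh-PURB, against 0.335 and 1.02 TPM in sh-NC. ADAMTS3 was at 5.11 and 5.71 TPM in sh-PURB, against 3.99 and 4.44 TPM in sh-NC (difference 0.30, SE 0.15, limma adjusted p = 0.433). The level of ADAMTS3 was thus above that of ADAMTS2 and ADAMTS14 in every library. ADAMTS13, the protease of von Willebrand factor, and ADAMTS16 had overlapping groups.

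With a rescaled fit of protein-coding genes alone, 7 members were called by limma in place of 1. ADAM9, ADAMTS1 and ADAMTS6 rose there, and ADAM19, MMP7, MMP9 and TIMP1 fell, with limma adjusted p-values from 0.000832 for TIMP1 to 0.0495 for ADAM19. MMP7 passed the filter only through sh-NC, where it was high, so its call is a description and not support. In that fit 416 of the 11925 tested protein-coding genes were called (3.49%), 1.33% higher and 2.16% lower, in place of 41 of all genes.

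The 34 members that were not tested comprised 20 that reached 0.1 TPM in some library, 8 that were above 0 in some library and under 0.1 TPM in all 4, and 6 listed at 0 in every library (MMP8, MMP26, MMP27, ADAM6, ADAM7 and ADAM30). The most abundant of the first kind were ADAMTS17 and ADAMTS9. ADAMTS17 was at 0.874 and 0.547 TPM in sh-PURB, against 0.779 and 1.52 TPM in sh-NC, and ADAMTS9 at 0.754 and 0.999 TPM in sh-PURB, against 0.533 and 1.38 TPM in sh-NC. In the ADAM family the leading low members were ADAM8, ADAM21, ADAM20 and ADAM5, all under 0.62 TPM. ADAM21, known from testis, was at 0.4404 and 0.545 TPM in sh-PURB, against 0.141 and 0.138 TPM in sh-NC. MMP28 and MMP11 stayed under 0.38 TPM and ADAMTS7 under 0.51 TPM, each with overlapping groups. The 8 members nearest to 0 were TIMP4, MMP20, MMP21, ADAM2, ADAM33, ADAMTS5, ADAMTS18 and ADAMTS20, and at these levels no difference was read from them.

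Genes that work with these enzymes were then read from the same fit, in lists chosen with earlier results of these data known. Of 9 tested genes of plasminogen and proprotein activation none passed, and 6 lay lower and 1 higher in both sh-PURB libraries, beside the 29.3% and 18.6% of all genes. SERPINE2, a secreted inhibitor of urokinase and thrombin, was at 10.4 and 10.7 TPM in sh-PURB, against 33.1 and 25.9 TPM in sh-NC (difference -1.39, SE 0.16, limma adjusted p = 0.0533). FURIN, which cuts the propeptide of ADAMs and membrane-type MMPs, was at 10.4 and 9.59 TPM in sh-PURB, against 14.1 and 13.3 TPM in sh-NC (limma adjusted p = 0.232), and the plasminogen activator PLAT was at 35.2 and 43.2 TPM in sh-PURB, against 47.2 and 47.2 TPM in sh-NC.

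Of 11 tested surface inhibitors, inducers and clearance genes none passed, and 6 lay lower and 1 higher in both sh-PURB libraries, beside 29.3% and 18.6% of all tested genes. One of the 6, the proteoglycan SPOCK3, passed the filter only through sh-NC, where it was high (0.140 and 0.824 TPM in sh-PURB, against 1.01 and 1.33 TPM in sh-NC). A2M, a secreted trap for proteases of many classes, was at 1.37 and 1.95 TPM in sh-PURB, against 16.1 and 29.1 TPM in sh-NC (difference -3.10, SE 0.31, limma adjusted p = 0.0517). THBS1, a matrix glycoprotein that binds MMP2 and MMP9, was at 3.65 and 3.80 TPM in sh-PURB, against 7.35 and 9.10 TPM in sh-NC (limma adjusted p = 0.0946). The proteoglycan SPOCK1 and caveolin CAV1 were at ratios of 0.513 and 0.761 to control.

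In a list of ADAM partners, mostly those of ADAM10 and ADAM17, all 12 tested genes had a difference below 0. Their median was -0.23, beside -0.06 for all tested genes, and the difference nearest to 0 was -0.01, for TSPAN5. The share of all tested genes below 0 was not counted. The median of all tested genes moved to 0.03 after median-ratio rescaling and to 0.08 with recomputed TPM. This list was not read in those settings, so its shared sign may depend on the scaling. Of the 12, 8 lay lower in both sh-PURB libraries, beside 29.3% of all tested genes, but none passed the test. The disulfide isomerase PDIA6 was at 116 and 120 TPM in sh-PURB, against 169 and 164 TPM in sh-NC (difference -0.49, SE 0.09, limma adjusted p = 0.0965). TSPAN14, a tetraspanin that carries ADAM10 to the surface, was at a ratio of 0.824 to control. Among 24 tested surface proteins that ADAMs release, none passed and the median was -0.06, beside -0.06 for all tested genes, with 10 lower (41.7%) and 5 higher (20.8%) in both sh-PURB libraries, beside 29.3% and 18.6% of all tested genes. The EGF receptor ligands TGFA and EREG were at ratios of 0.165 and 0.285 to control (limma adjusted p = 0.0615 and 0.0544), and the chemokines CX3CL1 and CXCL16 at 0.423 and 0.470. AREG, a further ligand of that receptor, lay the other way at 14.8 and 5.65 TPM in sh-PURB, against 3.95 and 3.53 TPM in sh-NC (limma adjusted p = 0.318), and sh-PURB replicate 1 stood highest. The neuregulin NRG1 and the receptor tyrosine kinase AXL were at ratios of 2.37 and 1.46 to control, also with groups apart (limma adjusted p = 0.167 and 0.243).

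Of 14 tested matrix substrates 1 was called lower and none higher, beside 0.203% and 0.0841% of all tested genes. Their median difference was -0.68, beside -0.06 for all tested genes. In both sh-PURB libraries 8 lay lower (57.1%) and 1 higher (7.14%), beside 29.3% and 18.6% of all tested genes. The called gene was SPP1 (osteopontin), a substrate of MMP3 and MMP7, which fell to 6.59 and 5.80 TPM in sh-PURB, against 33.8 and 30.7 TPM in sh-NC (limma adjusted p = 0.0374). As for every gene, that call was lost when any library was left out. FN1 was at a ratio of 0.171 to control, and the basement membrane collagen chains COL4A1 and COL4A2 at 0.497 and 0.507, none of them past the threshold. Among 16 tested AP-1 and ETS factors, which act at many MMP promoters, none passed, and the 4 that lay lower and 3 that lay higher in both sh-PURB libraries were near the 29.3% and 18.6% of all tested genes. JUNB was at 9.19 and 11.9 TPM in sh-PURB, against 24.6 and 26.5 TPM in sh-NC (limma adjusted p = 0.0673), and ATF3 was at 3.83 and 4.08 TPM in sh-PURB, against 1.58 and 2.27 TPM in sh-NC (limma adjusted p = 0.180). FOS was at 2.04 and 40.5 TPM in sh-PURB, against 9.26 and 79.1 TPM in sh-NC. FOSB was at 0.148 and 2.11 TPM in sh-PURB, against 0.391 and 4.91 TPM in sh-NC. Both had overlapping groups and stood far higher in replicate 2 of each group.

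Among related proteinases and ADAMTS-like proteins outside the naming rule, 7 of 16 measured were tested and none passed. PAPPA2, which cuts IGF binding proteins, was at 9.16 and 7.04 TPM in sh-PURB, against 4.08 and 2.22 TPM in sh-NC (difference 1.16, SE 0.27, limma adjusted p = 0.158). Of the ADAMTS-like genes, which lack the protease domain, ADAMTSL5 lay lower in both sh-PURB libraries at a ratio of 0.577 to control (limma adjusted p = 0.360). ADAMTSL1, ADAMTSL3 and ADAMTSL4 had overlapping groups at ratios of 0.880, 1.07 and 0.826, and so did BMP1 and PAPLN. Of the genes that overlap the TIMP genes, SYN2, SYN3 and CEP295NL lay between 0.429 and 1.77 TPM in every library.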

How the data were processed

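RNA-seq of 2 sh-PURB and 2 sh-NC libraries of U2OS cells was analysed from the TPM values that the authors deposited per gene symbol. Per the submitters' processing notes the tools were kallisto 0.44.0, sleuth, DESeq2 and bcl2fastq 2.19. Those notes list a human and a mouse build (GRCh38, GRCm38) without saying how each was used. Strand setting, annotation and summing to genes are not given here. TPM keeps no depth, so no counting interval can be given. Columns summed to 977570 to 981061 TPM, with 0.921% to 1.66% in a row without a name that was left out. Symbols were matched to GENCODE v29 (36725 current, 2689 older, 105 unmatched).

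Genes at 1 TPM or more in at least 2 libraries (14269) were fitted with limma 3.58.1 (R 4.3.3) on log2(TPM + 1) with a trend in intensity. P-values were adjusted by Benjamini-Hochberg over all of these genes. Differences on this scale understate changes of low genes. Residual and prior degrees of freedom were 2 and 2.92. The steps were tested on simulated data. Members, lists and tests were chosen with earlier results of these data known. Named were TIMP1 to TIMP4, PURB, called members, up to 8 members per family by smallest p, 6 by level and 4 low ones by level, and up to 4 genes per list by smallest p. Other genes, such as markers, overlapping genes and further members, were named after their values were seen. Replicates 1 and 2 were not treated as pairs. Alternatives were other pseudocounts, filters, scalings, limma settings, a replicate block and leaving out each library. Figures used matplotlib 3.10.9.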

Additional observations from a re-analysis of the deposited data

How the results depend on the processing

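All 41 calls over all genes, and the call of TIMP1 among the members, depended on the settings of limma. At a pseudocount of 0.1, with no filter and in limma without trend 0 genes and 0 members were called, and the TIMP1 difference was -1.69, -1.68 and -1.68. Leaving out a library also gave 0 genes and 0 members, with TIMP1 between -1.70 and -1.66 and PURB between -1.08 and -0.81, in fits with 1 residual degree of freedom. The count over all genes was 121 with a filter at 5 TPM, 84 after median-ratio rescaling, 60 with recomputed TPM, 125 with robust moderation and 416 among protein-coding genes, where 7 members were called and PURB was called at -0.91. Recomputed TPM moved the median of all genes to 0.08. At a pseudocount of 0.1 the median of the tested members was -0.22, and without a library it lay between -0.35 and -0.11. The cause of these changes was not tested.

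Of 31 named members tested, 24 kept their sign in every alternative in which they were tested, which was all 14 for 16 members and 13 for the 15 that did not pass the filter at 5 TPM. ADAMTS13 changed sign at a pseudocount of 0.1 (0.000223), after median-ratio rescaling (0.0027) and with recomputed TPM (0.072). Without a library, ADAM10 lay between -0.11 and 0.14, ADAM15 between -0.070 and 0.28, ADAM32 between -0.16 and 0.39, ADAMTS13 between -0.51 and 0.43, ADAMTS16 between -0.035 and 0.20, MMP2 between -0.58 and 0.16 and MMP3 between -0.37 and 1.14. With the replicate number as a block 118 genes were called, TIMP1 the only member (limma adjusted p = 0.0239), and it changed no member's call. Deviations of same-numbered libraries correlated at 0.193 over all tested genes, and the labels do not say that the numbers pair them. Depth is unknown, so members under 1 TPM carry no stated precision.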
